A study of Macaca mulatta with 29 samples.

Results

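The G2/M and mitotic genes are 40 genes that dividing cells use to enter mitosis, build the spindle, hold and release chromosomes and divide. They were taken by gene symbol from a table of 16048 genes, and 36 of the 40 had a row. CDC25C, ANLN, NUSAP1 and BUB1B were not analysed here. All 36 had a mean of at least 1 FPKM (fragments counted on a transcript, scaled for its length and the size of the library) over the libraries, as did 11080 genes in all, so no member was lost to the filter on low values.

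RNA was sequenced from 29 libraries of ORMES-6, a rhesus macaque embryonic stem cell line, grown in 5% oxygen on a feeder layer of mouse embryonic fibroblasts that no longer divide. Every culture received methanol as vehicle or a compound dissolved in it for 4 weeks. The groups were vehicle (5 libraries), tributyltin chloride at 25 nM (5), atrazine at 30 uM (5), perfluorooctanoic acid, PFOA, at 100 nM (5), bis(2-ethylhexyl) phthalate, DEHP, at 5 uM (4) and bisphenol A at 10 nM (5). All 5 agents are studied as endocrine disruptors: tributyltin is an organotin biocide, atrazine a herbicide, PFOA a surfactant, and DEHP and bisphenol A are used in plastics. Because each treatment occupied 1 plate, a compound and its plate cannot be told apart, and p-values below measure only the spread between libraries of a plate of 1 cell line. The design compares each compound with vehicle and asks here whether long exposure at these doses went with a different level of the mitotic transcripts.

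Entry into mitosis is driven by the kinase CDK1 bound to cyclin A or cyclin B. WEE1 holds CDK1 inactive, CDC25 phosphatases release it, and FOXM1 is a transcription factor that drives many genes of this set. Once chromosomes are condensed and attached to the spindle, the spindle checkpoint lets the anaphase-promoting complex destroy securin (PTTG1) and the cyclins, and the cell divides. Pluripotent stem cells divide quickly with short gap phases, and mitotic transcripts are abundant in them.

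Read from the steps between low values, the depth with bisphenol A was only 14.2 to 27.2% of that of the deepest library, against 41.2 to 100% in the other groups. Of 14 pluripotency markers with a row out of 16, all 14 passed the filter, and POU5F1 group means ran from 489 to 554 FPKM. Of 24 fibroblast markers that could mark the feeder layer, 22 had a row and 13 passed the filter. The defining fibroblast gene DCN was listed at 0 in every group and COL3A1 was below 0.1 FPKM in every group mean, while COL1A1 was between 43.1 and 57.5 FPKM.

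Mitotic transcripts were abundant in vehicle colonies. The median member stood at 78.6 FPKM in vehicle, against 11.2 FPKM for the median of all genes tested, and 35 of 36 members were at or above that overall median. TOP2A, the topoisomerase that untangles sister chromatids, was the highest at 444 ± 46.1 FPKM (SD, n = 5). PTTG1 followed at 369 ± 63.9 FPKM, then UBE2C, the ubiquitin-conjugating enzyme of the anaphase-promoting complex, at 238 ± 30.8 FPKM, and CENPF, a large kinetochore protein, at 212 ± 19.8 FPKM.

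The 4 lowest members in vehicle were KIF2C, a microtubule-depolymerizing kinesin, at 20.2 ± 1.27 FPKM, NEK2, a centrosome kinase, at 17.5 ± 1.80 FPKM, FOXM1 at 16.6 ± 1.37 FPKM and CDC25B at 7.64 ± 0.788 FPKM (SD, n = 5 each). CDC25B was thus the lowest member, and the only member below the overall median. In the order of vehicle levels, 31 of 35 neighbouring pairs had ranges that overlapped, so most of the order is within the spread between libraries; PTTG1 and UBE2C, and CENPF and CCNB1, were among the 4 pairs whose ranges did not overlap.

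**Figure D1:**
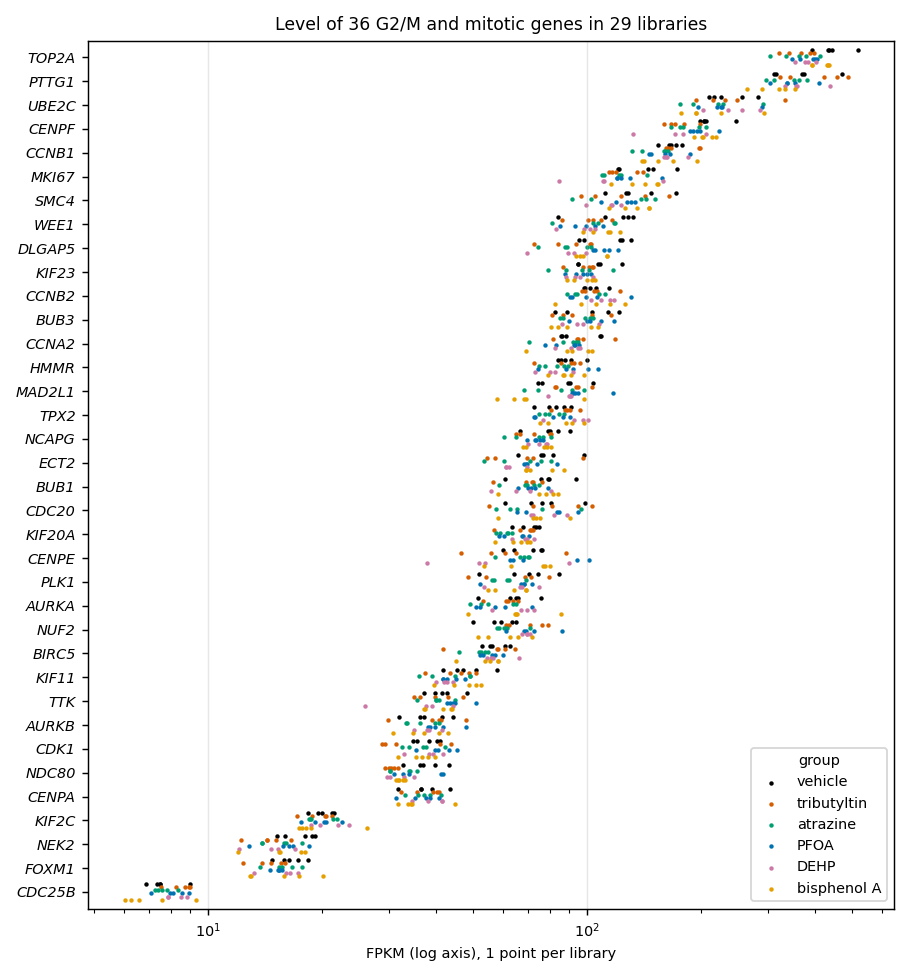
FPKM (log axis) of each of the 36 genes in each of the 29 libraries, 1 point per library coloured by group, ordered by vehicle mean from TOP2A at 444 FPKM to CDC25B at 7.64 FPKM. For each gene the 6 groups lie in the same narrow band.

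The groups differed little in these levels. The ratio of the highest to the lowest group mean was 1.16 for the median member, and ran from 1.07 to 1.37. MAD2L1, a checkpoint protein that holds back anaphase, had the widest ratio, with a mean of 97.8 FPKM with PFOA and 71.6 FPKM with bisphenol A. Within groups, the median member had an SD of 0.17 on the log2 scale, against 0.18 for the median of all genes tested. The members least variable within groups were KIF20A, a kinesin of the central spindle (SD 0.11), NDC80 (0.12) and TOP2A (0.12), and the most variable were CENPE, a kinetochore motor (0.30), CDC20, an activator of the anaphase-promoting complex (0.26), and UBE2C (0.25).

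With libraries treated as unpaired, no member passed an adjusted p of 0.05 against vehicle with any compound (limma on log2(FPKM + 1), two-sided, Benjamini-Hochberg over all 11080 genes). A block for library number, shared by all 6 groups, was also fitted. With the block 2 of 36 members passed with tributyltin, NDC80 and TOP2A, beside 420 of all 11080 genes. With atrazine 1 of 36 passed, TOP2A, where calls over all genes ran up to 84 over the alternatives. Both members are described under their roles. Only tributyltin met the check used for pairing, that every correlation over all genes between same-numbered compound and vehicle libraries was above 0.1. Over the members alone the 4 DEHP correlations, from 0.29 to 0.64, were also above 0.1. Differences are therefore given below as values, as differences of log2(FPKM + 1), which understate the change of low genes. In the unpaired fits tributyltin gave 138 calls among all genes, a background of 1.25%. Atrazine gave 21 (0.19%), PFOA 18 (0.162%), DEHP 1 (0.00903%) and bisphenol A 0 (0%), so 0 of 36 without the block is near the background in each comparison. All 5 comparisons use the same 5 vehicle libraries.

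At an unadjusted p under 0.05 there were 6 members with tributyltin (background 10.5%), 5 with atrazine (6.88%), 2 with PFOA (5.79%), 7 with DEHP (7.93%) and 2 with bisphenol A (5.17%). The 95% intervals of the members' differences had a median half-width of 0.21, or 0.23 for DEHP, and the widest were 0.36 and 0.38. Over all members and compounds the bounds ran from -0.69 to 0.49. Changes smaller than these intervals were not detectable with this number of libraries. The intervals are not adjusted for the number of genes, so some changes larger than them did not pass either. NDC80 with tributyltin, at -0.30, did not pass without the block. No member had ranges apart from vehicle with atrazine (background 0.749% lower and 0.424% higher), PFOA (1% and 0.289%) or bisphenol A (0.325% and 0.19%). With tributyltin 1 member lay wholly below vehicle (background 1.71%) and 0 above (0.623%), and with DEHP 0 lay below (1.64%) and 1 above (0.903%). In RNA from whole colonies, fewer cells in mitosis and less RNA per cell cannot be told apart.

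Most members lay slightly below vehicle with atrazine and bisphenol A. The median difference of the 36 members was -0.13 with atrazine (all genes tested, -0.0046), with 34 of 36 below 0 where 51.4% of all genes were; after quantile normalization the median was -0.03, with 27 of 36 below 0. It was -0.07 with bisphenol A (all genes, -0.02), with 32 of 36 below 0 where 56.2% of all genes were, but 0.0037 after quantile normalization, with 17 of 36 below 0, and -0.04 without vehicle library 3. The mean log2 level of 13 fibroblast markers was 4.25 ± 0.048 in vehicle, 4.35 ± 0.070 with bisphenol A and 4.32 ± 0.12 with atrazine (SD, n = 5 each), and both ranges overlapped that of vehicle. Their summed level ran from 523 to 614 FPKM in vehicle, 533 to 652 FPKM with atrazine and 518 to 639 FPKM with bisphenol A. Depth was also lower with bisphenol A. A fit with the mean of the fibroblast markers as a covariate was among the alternatives tried. Over the alternatives that kept all libraries of the groups compared, the median ran from -0.13 to -0.03 with atrazine and from -0.08 to 0.0037 with bisphenol A. What part feeder RNA or depth had in these medians was not tested further.

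With the remaining compounds the median member difference was -0.08 with tributyltin (24 of 36 below 0, where 54.8% of all genes were), -0.06 with PFOA (26 of 36, 52%) and -0.07 with DEHP (21 of 36, 52.5%). After quantile normalization these were -0.06, -0.02 and 0.01, so the DEHP median changed sign. Leaving out 1 library moved the tributyltin median to -0.12 (vehicle library 1), -0.04 (vehicle library 3) or -0.05 (tributyltin library 1). It moved the DEHP median to -0.12 (vehicle library 1) or -0.04 (vehicle library 4 or DEHP library 1), and the PFOA median to -0.04 (vehicle library 5). Averaged over members, the library level was 6.21 ± 0.069 on the log2 scale in vehicle and between 6.09 ± 0.055 (atrazine) and 6.18 ± 0.048 (PFOA) with the compounds (SD, n = 5 each).

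**Figure D2:**
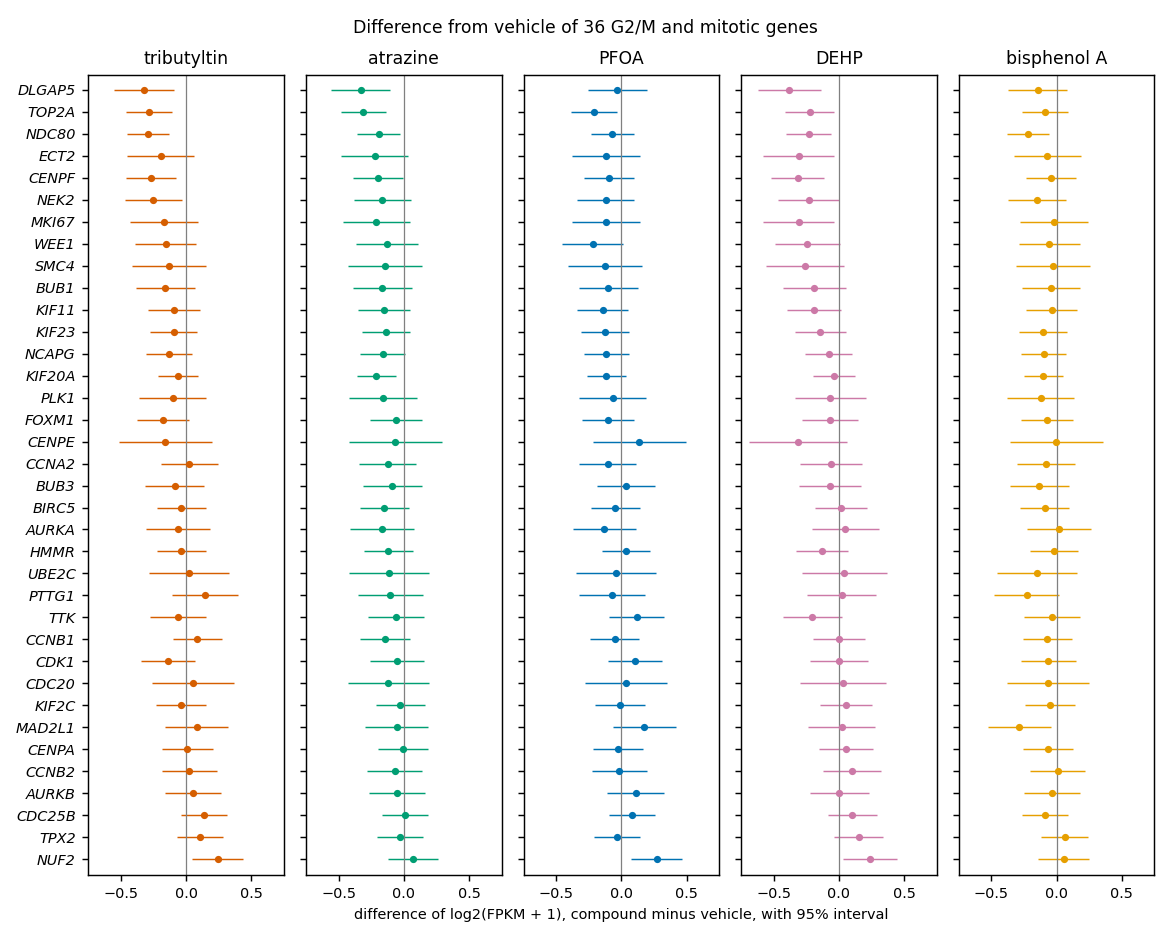
Difference from vehicle of log2(FPKM + 1) for each of the 36 genes (points) with its 95% interval (lines), 1 panel per compound. The lowest gene is DLGAP5 with tributyltin, atrazine and DEHP, WEE1 with PFOA and MAD2L1 with bisphenol A, and the highest is NUF2 except with bisphenol A, where it is TPX2. No difference passed an adjusted p of 0.05 without the block; after quantile normalization the medians for DEHP and bisphenol A changed sign, to 0.01 and 0.0037.

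Against vehicle, the CDK1 engine had 0 of 7 members with an unadjusted p under 0.05 with any compound, where 5.17 to 10.5% of all genes had one. CDK1 itself was at 38.0 ± 2.78 FPKM in vehicle and had group means from 34.9 FPKM (tributyltin) to 40.9 FPKM (PFOA). CCNB1, the main mitotic cyclin, was at 167 ± 9.09 FPKM in vehicle and had group means from 151 FPKM (atrazine) to 178 FPKM (tributyltin). FOXM1 had group means from 14.5 to 16.6 FPKM, the highest in vehicle.

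Against the mean of the other 4 compounds, CCNB1 was 0.15 higher with tributyltin (SE 0.074, adjusted p = 0.385) and 0.14 lower with atrazine (difference -0.14, SE 0.074, adjusted p = 1.00, and -0.09 without atrazine library 4), by limma. Its 5 tributyltin libraries stood at 199, 164, 162, 167 and 197 FPKM and its 5 atrazine libraries at 164, 140.3, 161, 132 and 159.7 FPKM. The ranges of those groups overlapped at their ends.

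WEE1, the kinase that restrains CDK1, stood at 83.9, 124.6, 132.3, 128.5 and 111.6 FPKM in vehicle and at 85.2, 105.1, 110.3, 93.3 and 99.5 FPKM with PFOA. All 5 PFOA libraries were below the vehicle mean, but the ranges overlapped because vehicle library 1 was below every PFOA library. The difference was -0.22 (SE 0.12, 95% interval -0.46 to 0.015, limma adjusted p = 0.895), and -0.33 without vehicle library 1. WEE1 was lower still with DEHP, at 83.0, 98.5, 105.0 and 102.0 FPKM, a difference of -0.24 (SE 0.12, adjusted p = 0.640).

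Among the mitotic kinases, PLK1, which drives centrosome maturation and mitotic exit, was at 69.1 ± 12.0 FPKM in vehicle and between 61.2 and 65.6 FPKM in the group means of the compounds. AURKA, the centrosome Aurora kinase, was at 64.3 ± 8.63 FPKM in vehicle and between 57.1 and 66.3 FPKM with the compounds. NEK2 was at 16.0, 18.9, 18.1, 15.2 and 19.2 FPKM in vehicle and at 14.4, 15.1, 12.3, 14.3 and 16.6 FPKM with tributyltin. All 5 tributyltin libraries were below the vehicle mean, with ranges that overlapped. The difference was -0.25 with tributyltin (SE 0.11, limma adjusted p = 0.375), -0.23 with DEHP (SE 0.11, adjusted p = 0.631) and -0.15 with bisphenol A (SE 0.11, adjusted p = 0.967), where it was -0.06 without bisphenol A library 1.

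Among the checkpoint and anaphase genes, MAD2L1 had the smallest adjusted p of all members for bisphenol A against the other 4 compounds. Its libraries were at 69.1, 68.4, 98.5, 57.9 and 64.3 FPKM with bisphenol A and at 74.3, 90.1, 89.0, 76.3 and 103.9 FPKM in vehicle. In 4 of the 5 bisphenol A libraries MAD2L1 was below every vehicle library, and in the remaining library, number 3, it was above 4 of them, so the ranges overlapped.

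The bisphenol A difference of MAD2L1 was -0.29 from vehicle (SE 0.12, limma adjusted p = 0.920) and -0.34 from the mean of the other 4 compounds (SE 0.094, 95% interval -0.53 to -0.15, adjusted p = 0.0673). Without bisphenol A library 3 the second difference was larger, at -0.46 (adjusted p = 0.00922), and 2 members, MAD2L1 and CDC25B, passed in place of 0. With all libraries, MAD2L1 also passed with the block (adjusted p = 0.0154) and after quantile normalization (0.0431). Calls over all genes in this contrast were 126 (1.14%) with all libraries, and ran from 50 to 156 with a library left out. Over all alternatives they ran from 30 to 543. CDC25B, a phosphatase that activates CDK1, differed in this contrast by -0.17 with all libraries (SE 0.069, adjusted p = 0.264) and had an adjusted p of 0.0401 without bisphenol A library 3. The bisphenol A libraries were also the shallowest of the series, and the part of depth in this difference was not tested.

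PTTG1, the securin that keeps sister chromatids joined, had its highest group mean with tributyltin (407 FPKM) and its lowest with bisphenol A (312 FPKM). Its libraries were at 470.5, 315.6, 312.6, 374.0 and 370.2 FPKM in vehicle, 457.6, 344.5, 323.4, 423.5 and 488.5 FPKM with tributyltin and 332.6, 264.0, 353.2, 321.8 and 290.6 FPKM with bisphenol A. The 3 ranges overlapped. Against the other 4 compounds it was 0.24 higher with tributyltin (SE 0.097, limma adjusted p = 0.270), and against vehicle it differed by -0.23 with bisphenol A (SE 0.12, adjusted p = 0.963), with 5 of 5 libraries below the vehicle mean, and by -0.14 without vehicle library 1.

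BUB1 and BUB3, which bind each other at unattached kinetochores, had group means of 68.0 to 77.7 FPKM and 92.5 to 104 FPKM. TTK, the kinase that starts the checkpoint, was 41.9 ± 4.12 FPKM in vehicle (n = 5) and 36.8 ± 7.71 FPKM with DEHP (n = 4), a difference from the other 4 compounds of -0.19 (SE 0.091, limma adjusted p = 0.998). Without DEHP library 4, in which TTK was at 26.0 FPKM, it was -0.04. UBE2C had group means of 217 to 246 FPKM.

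The kinetochore genes held the member with the smallest adjusted p against vehicle. NDC80, the microtubule-binding subunit of the outer kinetochore, was at 43.3, 37.0, 36.3, 32.8 and 39.8 FPKM in vehicle and at 30.1, 31.0, 31.7, 30.5 and 29.4 FPKM with tributyltin. Every tributyltin library was below every vehicle library, and the tributyltin libraries lay close together.

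The tributyltin difference of NDC80 was -0.30 (SE 0.079, 95% interval -0.46 to -0.13, limma adjusted p = 0.0604). Tributyltin and vehicle libraries with the same number deviated together (all 5 correlations above 0.1), and with library number as a block 2 of 36 members passed, NDC80 (adjusted p = 0.0286) and TOP2A (adjusted p = 0.0118), while calls over all genes went from 138 to 420. NDC80 also passed without vehicle library 4 (adjusted p = 0.0298). Over all alternatives its adjusted p ran from 0.0286 to 0.264.

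The other compounds placed NDC80 between tributyltin and vehicle. Its libraries were at 30.3, 33.9, 30.3, 34.1 and 35.7 FPKM with atrazine, at 35.0, 32.9, 29.7 and 30.2 FPKM with DEHP and at 32.0, 31.8, 33.1, 31.3 and 32.7 FPKM with bisphenol A, all below the vehicle mean. With PFOA they were at 41.2, 31.1, 33.9, 41.8 and 32.8 FPKM, on both sides of it. The differences were -0.19 with atrazine (SE 0.079), -0.23 with DEHP (SE 0.084) and -0.22 with bisphenol A (SE 0.079), with limma adjusted p of 0.606, 0.483 and 0.740. Against the other 4 compounds the PFOA level was 0.17 higher (SE 0.063, adjusted p = 0.998).

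NUF2 is the coiled-coil partner of NDC80 in the same complex, and its values lay on the other side of vehicle. It was at 50.2, 56.8, 65.0, 63.4 and 59.3 FPKM in vehicle, 69.2, 72.5, 68.2, 85.9 and 61.4 FPKM with PFOA and 71.0, 67.6, 69.6 and 69.4 FPKM with DEHP. The DEHP libraries were all above the vehicle libraries, and the PFOA range overlapped the vehicle range. With PFOA the difference was 0.27 (SE 0.095, 95% interval 0.076 to 0.47, limma adjusted p = 0.560). With atrazine and bisphenol A the group means were 61.8 and 61.4 FPKM, against 58.9 FPKM in vehicle. With tributyltin NUF2 was at 62.2, 76.1, 79.0, 70.8 and 61.2 FPKM, all above the vehicle mean, with a range that overlapped vehicle and a difference of 0.24 (SE 0.095, adjusted p = 0.319).

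Within a library, the ratio of NUF2 to NDC80 was 1.58 ± 0.30 in vehicle, 2.28 ± 0.20 with tributyltin and 2.18 ± 0.16 with DEHP (SD, n = 5, 5 and 4). The tributyltin libraries (2.07 to 2.49) and the DEHP libraries (2.03 to 2.34) were all above the vehicle libraries (1.16 to 1.93). With atrazine, PFOA and bisphenol A the mean ratio was 1.90, 1.99 and 1.91. This ratio was chosen after the values were seen, so it carries no test. The other subunits of the complex, SPC24 and SPC25, had group means of 10.0 to 12.8 FPKM and 53.6 to 66.5 FPKM, with ranges that overlapped vehicle in every group.

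CENPF had its 2 lowest group means with DEHP (172 FPKM) and tributyltin (175.5 FPKM), without passing the test. Its libraries were at 206.7, 204.4, 247.5, 199.0 and 204.4 FPKM in vehicle, 166.7, 180.8, 199.1, 171.4 and 159.5 FPKM with tributyltin and 206.2, 179.5, 170.8 and 132.2 FPKM with DEHP. Only the highest tributyltin library reached the lowest vehicle library, and DEHP spanned the widest range. The differences were -0.27 (SE 0.094, limma adjusted p = 0.208) and -0.31 (SE 0.099, adjusted p = 0.420). Against the other 4 compounds the DEHP difference was -0.16 (SE 0.081, adjusted p = 0.998). DEHP library 4 weighs on both DEHP values: without it they were -0.19 from vehicle and -0.04 from the other compounds. Without DEHP library 1 the latter was -0.26.

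**Figure D3:**
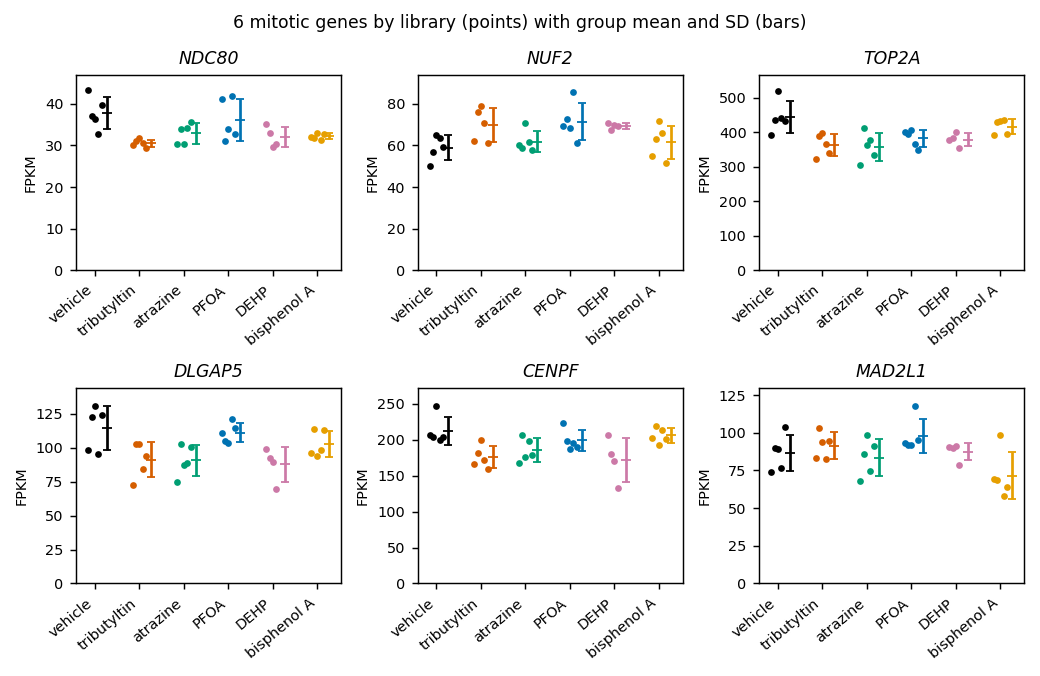
FPKM of NDC80, NUF2, TOP2A, DLGAP5, CENPF and MAD2L1 by group, 1 point per library, with bars for the group mean and SD. The 5 tributyltin libraries of NDC80 (29.4 to 31.7 FPKM) sit below all 5 vehicle libraries (32.8 to 43.3 FPKM), and the 4 DEHP libraries of NUF2 (67.6 to 71.0 FPKM) above all vehicle libraries (50.2 to 65.0 FPKM).

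Among the spindle genes, DLGAP5, a microtubule-associated protein of spindle assembly, had the largest F over the 6 groups of all members. Its libraries were at 98.4, 122.6, 130.9, 95.5 and 124.0 FPKM in vehicle, 72.5, 102.3, 102.8, 84.1 and 93.7 FPKM with tributyltin, 74.4, 102.4, 87.4, 88.4 and 100.2 FPKM with atrazine and 99.3, 92.4, 89.1 and 69.6 FPKM with DEHP. All 14 of these treated libraries were below the vehicle mean, and each group overlapped the lower vehicle libraries. PFOA (103.7 to 121.0 FPKM) and bisphenol A (93.7 to 113.4 FPKM) lay within or close to the vehicle range.

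The differences of DLGAP5 from vehicle were -0.32 with tributyltin (SE 0.11), -0.33 with atrazine (SE 0.11) and -0.38 with DEHP (SE 0.12), with limma adjusted p of 0.206, 0.438 and 0.420. Against the other 4 compounds it was 0.26 higher with PFOA (SE 0.088, adjusted p = 0.998). KIF20A, needed for cytokinesis, was at 67.9, 63.5, 73.5, 74.7 and 72.5 FPKM in vehicle and at 61.6, 63.6, 61.8, 57.5 and 59.0 FPKM with atrazine. Only 1 atrazine library, number 2, reached the lowest vehicle library. The difference was -0.21 (SE 0.074, adjusted p = 0.475), and KIF20A differed by -0.11 with PFOA (SE 0.074, adjusted p = 1.00) and by -0.13 with atrazine against the other 4 compounds (SE 0.059, adjusted p = 1.00).

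The 4 chromosome structure genes lay below vehicle with each compound, where 51.4 to 56.2% of all genes did, though with bisphenol A only 1 of 4 after quantile normalization. Their median difference was -0.15 with tributyltin, -0.19 with atrazine, -0.12 with PFOA, -0.24 with DEHP and -0.06 with bisphenol A, where quantile normalization gave 0.04. The other 3 members are SMC4 and NCAPG, subunits of condensin, which compacts chromosomes, and MKI67, a surfactant of mitotic chromosomes. MKI67 was at 142 ± 21.6 FPKM in vehicle (n = 5) and 116 ± 31.0 FPKM with DEHP (n = 4).

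TOP2A had the smallest adjusted p of this role with tributyltin, atrazine, PFOA and DEHP. Its libraries were at 391.8, 435.4, 518.6, 442.1 and 432.9 FPKM in vehicle, 322.3, 388.8, 397.2, 367.4 and 340.7 FPKM with tributyltin and 305.2, 411.7, 363.0, 378.3 and 335.2 FPKM with atrazine. With PFOA they were at 400.8, 395.1, 405.4, 365.2 and 348.8 FPKM and with DEHP at 377.0, 382.6, 401.4 and 354.2 FPKM. Every library of these 4 compounds was below the vehicle mean of 444 FPKM, and each group overlapped the vehicle range only at vehicle library 1, the lowest. With bisphenol A TOP2A stood at 392.3 to 435.7 FPKM, inside the vehicle range.

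The TOP2A differences from vehicle were -0.29 with tributyltin (SE 0.086), -0.31 with atrazine (SE 0.086), -0.21 with PFOA (SE 0.086) and -0.22 with DEHP (SE 0.091). By limma their adjusted p were 0.109, 0.211, 0.701 and 0.542. Tributyltin with library number as a block gave 0.0118, as stated for NDC80, and its adjusted p ran up to 0.515 over the alternatives. Atrazine with the block gave 0.0216, and its adjusted p ran up to 0.994 over the alternatives. ECT2, which activates RhoA at the cleavage site and is the only cytokinesis member with a row, was at 79.6 ± 11.8 FPKM in vehicle (n = 5) and 63.6 ± 4.10 FPKM with DEHP (n = 4).

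Over the 6 groups at once, no member passed the F test, where 1.25% of all genes did. At an unadjusted p under 0.05 there were 6 members against 11% of all genes. The smallest adjusted p belonged to DLGAP5 (F = 4.22, adjusted p = 0.174), TOP2A (3.89, 0.206), NDC80 (3.89, 0.206), MAD2L1 (3.50, 0.25) and CENPF (3.49, 0.251), by limma. With the block DLGAP5 (limma adjusted p = 0.0373) and TOP2A (0.0167) passed, and with library weights DLGAP5 (0.0372). Without bisphenol A library 3 MAD2L1 passed (adjusted p = 0.0366). Calls over all genes in the F test ran from 88 to 543 over the alternatives.

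Compound against the mean of the other 4 compounds, which leaves the vehicle libraries out of the contrast, also gave no member. Alternatives gave up to 2 with bisphenol A. The background was 1.94% of all genes with tributyltin, 0.00903% with atrazine, 0% with PFOA, 0.00903% with DEHP and 1.14% with bisphenol A. At an unadjusted p under 0.05 there were 2, 1, 4, 1 and 5 members, against 12.8, 3.52, 4.49, 3.84 and 12.9% of all genes.

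Members did not vary as 1 block between libraries of a group. Over deviations from the group means in the 29 libraries, the 630 pairs of members had a median Pearson's r of 0.12, against -0.0045 over 61377700 pairs of all genes tested. Of member pairs 20% had r above 0.5, where 8.12% of all pairs did, and 7.94% were below -0.5, where 7.00% of all pairs were. These are descriptions: the points share library and depth.

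Grouping members by those correlations gave 3 sets. In the first, CCNB2, CCNB1, UBE2C, BIRC5, AURKB, CDC20, PTTG1 and KIF20A varied together with a median r of 0.47, all 28 pairs above 0. In another, NDC80, HMMR, CENPF, CENPE, MKI67, DLGAP5, CDK1 and TTK had a median r of 0.55, again with 28 of 28 above 0. The remaining 20 members, among them CCNA2, TOP2A, SMC4, NCAPG, KIF11 and BUB1, had a median r of 0.41. BIRC5 is survivin and AURKB its partner kinase in the chromosomal passenger complex; HMMR is a spindle protein and KIF11 the motor that separates spindle poles.

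The cyclin B set and the others went opposite ways. The median r was -0.26 between the CCNB1 and CDK1 sets, with 14 of 64 pairs above 0, and -0.24 between the CCNB1 set and the 20 remaining members, with 42 of 160 above 0. The highest pair was TOP2A with SMC4 at r = 0.92, and the lowest was CDC20 with SMC4 at r = -0.83. The sets were chosen from these values, so no test applies to them. Since group means were removed first, this co-variation is within groups and holds no treatment effect. Library number was not removed. In library 1 the mean deviation of the CCNB1 set was above 0 in every group, from 0.06 (DEHP) to 0.22 (bisphenol A). That of the 20 remaining members was below 0 in every group, from -0.21 (vehicle) to -0.07 (PFOA). The CDK1 set went both ways there, from -0.10 (atrazine) to 0.29 (DEHP). How much of the opposition between sets follows library number was not tested.

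**Figure D4:**
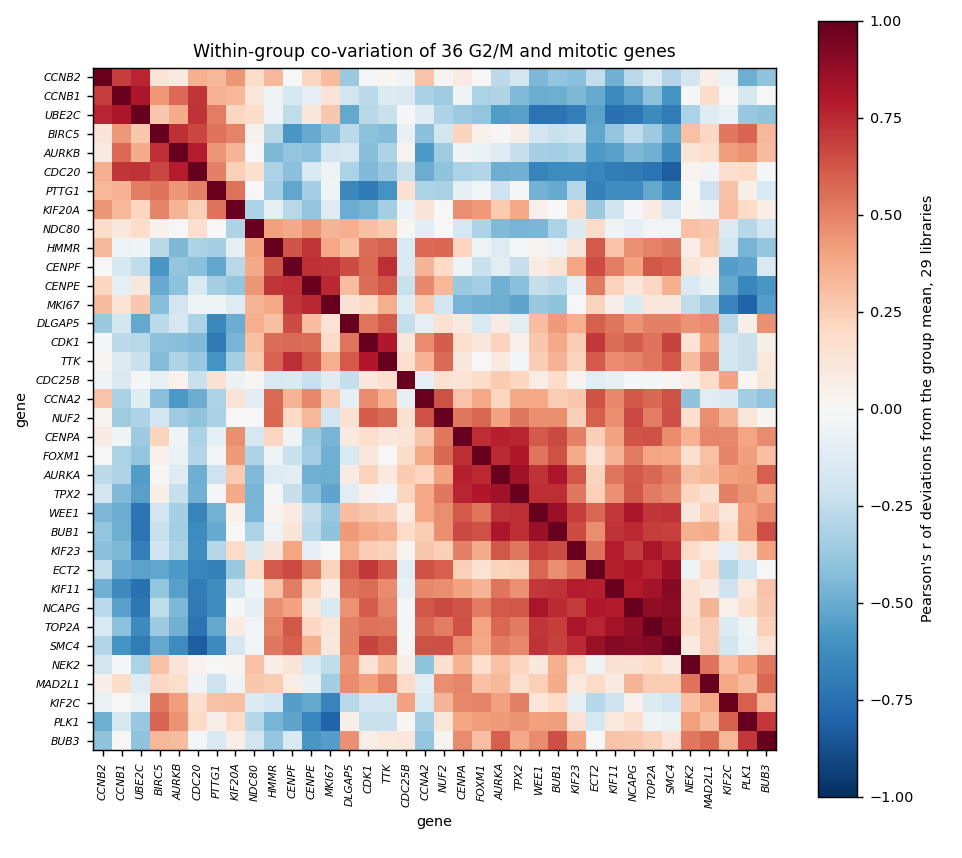
Pearson's r between each pair of the 36 genes over 29 libraries, from deviations of log2(FPKM + 1) from the group mean, with red for positive and blue for negative values, in the order of a hierarchical clustering. The block at top left is the CCNB1 set (median r 0.47), which is blue against most of the other members.

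The same sets lay differently against vehicle. The CDK1 set had a median difference of -0.17 with tributyltin and -0.16 with atrazine, each with 8 of 8 members below vehicle, and -0.27 with DEHP, with 7 of 8 below; quantile normalization left these medians below 0, at -0.14, -0.05 and -0.19. The CCNB1 set had a median of 0.04 with tributyltin, with 2 of 8 below, -0.12 with atrazine, with 8 of 8 below, and 0.02 with DEHP, with 1 of 8 below; quantile normalization gave 0.06, -0.02 and 0.08. No member of either set passed without the block. Between libraries, the mean deviation of the CDK1 set from its group mean ran from -0.17 to 0.23 with tributyltin and from -0.10 to 0.10 with atrazine. With DEHP it ran from -0.32 in library 4 to 0.29 in library 1. Members of a set vary together between libraries, so the counts below vehicle are not independent.

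With PFOA the CDK1 set had a median of 0.0016, with 4 of 8 below, and with bisphenol A -0.04, with 8 of 8 below, which became 0.04 with 3 of 8 below after quantile normalization. The CCNB1 set had medians of -0.04 with PFOA, with 6 of 8 below, and -0.08 with bisphenol A, with 7 of 8 below. The remaining 20 members had medians of -0.10, -0.13, -0.11, -0.07 and -0.07 with tributyltin, atrazine, PFOA, DEHP and bisphenol A, with 14, 18, 16, 13 and 17 below; after quantile normalization the DEHP median was 0.0027. Of all genes, 54.8, 51.4, 52, 52.5 and 56.2% were below vehicle in that order.

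Part of the within-group spread followed the library number in the titles, which the labels do not tie to a day, well or pool. Library 1 was the highest of its group in all 6 groups for UBE2C, which held for 3.17% of all genes. It was the lowest in all 6 for WEE1, BUB1 and BUB3, which held for 4.19% of all genes, and library 3 was the highest in all 6 for BUB1 (0.451% of all genes).

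UBE2C stood at 282.8, 334.3, 292.2, 290.6, 287.0 and 293.6 FPKM in library 1 of vehicle, tributyltin, atrazine, PFOA, DEHP and bisphenol A, and at 175.7 to 257.1 FPKM in the other 23 libraries. The 6 libraries numbered 1 were thus above all others. BUB1 in those 6 libraries ran from 55.7 to 66.0 FPKM, and the library 3 values ran from 74.7 to 93.6 FPKM. What the number stands for was not tested.

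**Figure D5:**
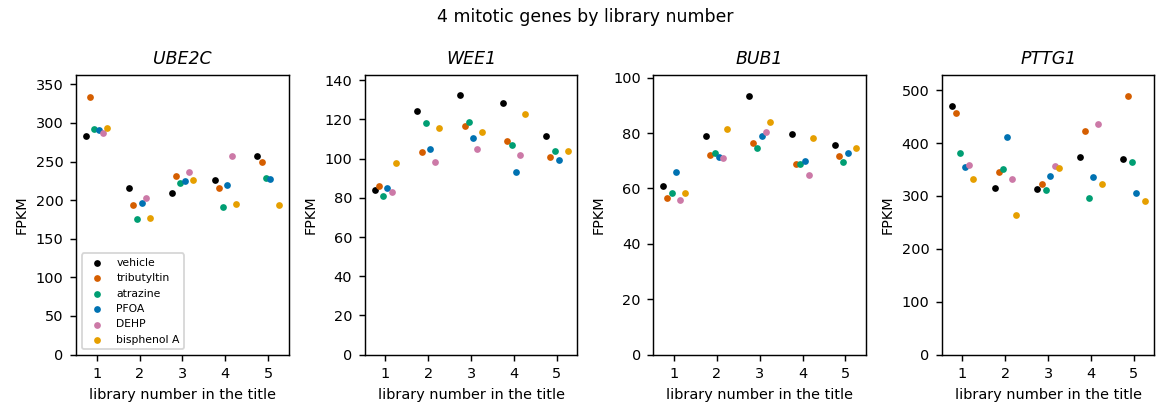
FPKM of UBE2C, WEE1, BUB1 and PTTG1 against the library number in the title, 1 point per library coloured by group (DEHP has 4 libraries). In all 6 groups UBE2C is highest and WEE1 and BUB1 are lowest at number 1, while PTTG1 has no such order.

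Of 70 other mitotic genes, 66 were tested, and none passed against vehicle with any compound. Their median differences were -0.07 with tributyltin, -0.10 with atrazine, -0.03 with PFOA, -0.06 with DEHP and -0.03 with bisphenol A, and -0.05, -0.06, -0.0067, -0.0067 and -0.0058 after quantile normalization. At an unadjusted p under 0.05, 4, 6, 3, 7 and 2 of the 66 did, in that order of compounds, against 10.5, 6.88, 5.79, 7.93 and 5.17% of all genes. None of the 17 anaphase-promoting complex genes, the 13 cohesin genes or the 15 tested regulators of mitotic transcription passed either; at an unadjusted p under 0.05 there were 2, 2, 0, 1 and 2 of the 17 and 0, 0, 1, 1 and 0 of the 15, to be read against the same shares. Cohesin, the ring that holds sister chromatids, had median differences of -0.18, -0.11, -0.10, -0.19 and -0.05 (0.02 with bisphenol A after quantile normalization), with 5, 3, 1, 7 and 1 of 13 at an unadjusted p under 0.05, again beside 10.5, 6.88, 5.79, 7.93 and 5.17% of all genes. MYBL2, a transcription factor of late cell cycle genes, had group means of 79.4 to 84.2 FPKM.

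Of 8 CDK inhibitors, 3 passed the filter on low values. CDKN1A, the p21 inhibitor induced by p53, was below it at 0.455 ± 0.13 FPKM in vehicle (n = 5). CDKN3, a phosphatase that acts on CDKs, was lower with bisphenol A than with the other 4 compounds. Its bisphenol A libraries were at 17.0, 11.4, 17.9, 12.5 and 12.6 FPKM, while vehicle was at 17.1 ± 1.43 FPKM (SD, n = 5), and the difference from the other compounds was -0.37 (SE 0.092, limma adjusted p = 0.0415). In this contrast 1.14% of all genes were called, and CDKN3 was not called against vehicle. Bisphenol A libraries 1 and 3 lay within the vehicle range of 15.4 to 18.4 FPKM. Tributyltin, PFOA and DEHP had means above vehicle, at 19.0, 19.7 and 20.5 FPKM, and atrazine below, at 15.8 FPKM. The call against the other compounds was lost under 15 of 34 alternatives, with adjusted p from 0.00848 to 0.185, and the low depth of the bisphenol A libraries moves with it.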

How the data were processed

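Expression was deposited by the authors as FPKM per gene and library in 1 table with human symbols; all 29 value columns matched a library title and 0 were left unmapped. The tools named in the submitters' processing notes are Cuffdiff 2.2.1, TopHat2 2.1.1 and SAMtools, and the only build named there is GRCm38.p5, of the mouse, with no role. The build used for rhesus and the handling of feeder reads are not given in the sources used here. Per the labels' protocols, 100 ng of RNA was amplified and read as 50 nt single-end reads.

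Values were transformed to log2(FPKM + 1), genes averaging 1 FPKM or more were kept, and limma 3.58.1 in R 4.3.3 was fitted to all 6 groups with a mean-variance trend. The fit was tested on simulated data. Depth came from low genes: 94.2% of 33962 low values were whole steps within 0.1 of a step. It is relative, so counting intervals were not made. Libraries of a group correlated at 0.97 to 0.995 and none were identical.

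The named members are every member past the threshold, the 4 with the smallest p against vehicle and the 2 against the other compounds for each compound, the 5 with the smallest F test p, and for levels a fixed list with the highest, lowest and most and least variable members. Over all genes, same-numbered tributyltin and vehicle libraries had correlated deviations (0.637, 0.251, 0.579, 0.175 and 0.654), which was taken as pairing. In the other 4 comparisons at least 1 correlation over all genes was under 0.1. Other pseudocounts, filters, scalings, fits and libraries left out were tried. Members and lists were chosen with earlier results of these data known.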

Additional observations from a re-analysis of the deposited data

Results flagged for a closer look

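In 14 of 216 combinations of a member and a group, 1 library lay far from the rest of its group by Dixon's criterion, which chance meets in about 1 in 20 groups. In bisphenol A library 3, MAD2L1 was at 98.5 FPKM (the others 57.9 to 69.1), CENPA at 45.0 (31.8 to 34.6) and KIF2C at 26.4 (17.4 to 18.7). In DEHP library 1, CCNB1 was at 185 FPKM (159.7 to 163) and ECT2 at 69.7 (61.1 to 62.3). In DEHP library 4, MAD2L1 was at 78.8 FPKM (89.8 to 91.0) and BIRC5 at 66.3 (54.7 to 56.6).

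In PFOA library 1, PLK1 was at 52.2 FPKM (66.9 to 71.9) and MKI67 at 158 (119.8 to 130.1). In PFOA library 4, MAD2L1 was at 118 FPKM (91.6 to 95.1) and TTK at 51.1 (42.8 to 45.0). CENPE was at 57.1 FPKM in atrazine library 5 (66.6 to 70.2), NUF2 at 70.8 in atrazine library 3 (57.9 to 61.5) and CENPF at 248 in vehicle library 3 (199.0 to 206.7).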

How the results depend on the processing

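The number of members called stayed at 0 under every alternative for PFOA, DEHP and bisphenol A against vehicle and for tributyltin, atrazine, PFOA and DEHP against the other 4 compounds. Against vehicle, tributyltin gave 2 members with the replicate block (NDC80, TOP2A), 1 with library weights (TOP2A, adjusted p = 0.0481), 1 with the feeder covariate (NDC80, 0.0445) and 0 to 1 with a library left out. Library numbers do not pair the other comparisons by the check used; there the block gave 1 member for atrazine (TOP2A, 0.0216), 2 for bisphenol A against the other compounds (MAD2L1, 0.0154, and TOP2A) and 2 in the F test (DLGAP5, 0.0373, and TOP2A, 0.0167), and it changed no other count of members. Bisphenol A against the other compounds gave 1 after quantile normalization (MAD2L1, 0.0431) and 0 to 2 with a library left out. The F test gave 1 with library weights (DLGAP5, 0.0372) and 0 to 1 with a library left out. Apart from tributyltin with the block, these counts of 1 or 2 members were not set beside the share of all genes called in the same setting. Calls over all genes moved too, from 138 to 420 for tributyltin with the block. After quantile normalization the median member difference was -0.032 for atrazine, 0.013 for DEHP and 0.0037 for bisphenol A. The cause of these shifts was not tested.

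Calls over all genes ran from 44 to 420 for tributyltin, 6 to 84 for atrazine, 7 to 63 for PFOA, 0 to 74 for DEHP and 0 to 3 for bisphenol A against vehicle. Against the other compounds they ran from 76 to 529, 0 to 28, 0 to 0, 0 to 15 and 30 to 543, and in the F test from 88 to 543. Depth is known only relative to the deepest library, and 1 plate per treatment leaves no replicate of the exposure.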

Other observations

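Among 14 tested markers of primed pluripotent cells, DNMT3B, a de novo DNA methyltransferase, was higher with tributyltin than with the other 4 compounds by 0.37 (SE 0.071, limma adjusted p = 0.0040), a call kept under 35 of 35 alternatives. In this contrast 1.94% of all genes were called. DNMT3B was at 395 ± 58.6 FPKM in vehicle and 468 ± 27.6 FPKM with tributyltin (SD, n = 5 each), with ranges that overlapped. It was not called against vehicle. The means with the other 4 compounds, 355 to 367 FPKM, were below vehicle.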
